A study of Homo sapiens with 6 samples.

Results

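The genes described here are the matrix metalloproteinases (MMPs), their tissue inhibitors (TIMPs), and the ADAM and ADAMTS proteases of U251 cells, an established human glioblastoma line. They were chosen by current symbol among protein-coding genes, which gave 64 of the 20330 Ensembl genes listed in the expression tables: 21 MMPs, 4 TIMPs, 20 ADAMs and 19 ADAMTS genes. MMP12 and MMP28 were not analysed here. RNA sequencing compared U251 cells with stable overexpression of the long noncoding RNA XLOC013218 with control U251 cells, 3 libraries each. Both groups are labelled U251, and the sources used here give neither what the control cells carry nor whether the overexpressing cells are a clone or a pool. The replicates count as biological by the design text, with no word on separate cultures, so p-values measure the spread between these 6 libraries. Levels of the XLOC013218 locus itself were not analysed here, so nothing in the values checks the group labels.

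MMPs are zinc proteases that cut collagens, proteoglycans and other matrix proteins, and TIMPs bind their active site and block them. Most MMPs are made as inactive proenzymes, and proMMP2 is activated at the cell surface by a complex of the membrane-type enzyme MMP14 with TIMP2. ADAMs are membrane proteases that release the outer parts of surface proteins such as Notch receptors, growth factor precursors and adhesion molecules, and some of them lack the zinc-binding active site and serve in adhesion. ADAMTS proteins are secreted relatives with thrombospondin repeats that cut hyalectans, procollagens and other matrix proteins. In glioma these families are known for their part in remodelling the brain matrix during invasion.

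Values are FPKM, fragments set relative to the length of the transcript and to all fragments mapped in that library, as the authors deposited them. FPKM is scaled by transcript length, so levels can be set side by side between genes. Ensembl genes summed to between 614027 and 621922 FPKM in the overexpressing libraries and between 598683 and 620473 in the control libraries, and the read depth is unknown. Between 21.5% and 21.9% of these genes were listed at 0 in overexpressing cells, against 22.6% to 23.3% in control cells, without overlap. Of 12 astroglial and glioma markers 9 reached a mean of 1 FPKM, with VIM, SOX2, NES and GFAP among them, while S100B, AQP4 and ALDH1L1 did not. These markers summed to between 4821 and 5042 FPKM in overexpressing and between 5101 and 5484 FPKM in control cells. Most of each sum came from VIM and CD44, whose groups overlapped. GFAP, at a mean of 21.6 FPKM against 41.6 FPKM in control cells, SOX2 and EGFR were lower without overlap, none past the threshold in limma. NES, SOX9, SLC1A3 and FABP7 overlapped between groups. Of these, SLC1A3 and FABP7 averaged 4.17 and 3.73 FPKM in overexpressing cells, against 3.26 and 2.98 FPKM in control cells. Macrophage markers summed to between 11.8 and 13.3 FPKM in overexpressing and between 8.07 and 9.49 FPKM in control cells, most of it from CD68 at a mean of 10.1 FPKM against 7.19 FPKM in control cells; CD14 averaged 1.04 FPKM in overexpressing and 1.07 FPKM in control cells, PTPRC was higher without overlap at under 1 FPKM, ITGAM and CSF1R overlapped, and AIF1 was at 0 in 5 of the 6 libraries. Fibroblast and pericyte markers summed to between 14.3 and 20.4 FPKM in overexpressing and between 12.2 and 13.6 FPKM in control cells, most of the gap coming from COL1A1 at a mean of 10.2 FPKM against 7.11 FPKM in control cells. PDGFRB and RGS5 of this list overlapped between groups, while DCN, LUM and COL3A1 were under 1 FPKM in every library and higher in overexpressing cells without overlap. Endothelial markers found in the tables summed to at most 5.18 FPKM in overexpressing and 5.61 FPKM in control cells. Oligodendrocyte markers summed to at most 0.95 FPKM in overexpressing and 0.47 FPKM in control cells. Neuron markers summed to between 263 and 273 FPKM in overexpressing and between 256 and 285 FPKM in control cells, mostly from TUBB3. Epithelial markers summed to between 178 and 215 FPKM in overexpressing and between 210 and 229 FPKM in control cells. These rest on KRT18 and on KRT8, which was lower without overlap but not past the threshold in limma. EPCAM and CDH1 were under 1 FPKM in every library.

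In U251 cells a few of these proteases and inhibitors were expressed at high levels. For testing, the average of the 6 libraries had to reach 1 FPKM, as it did in 11731 of the 20398 genes and assembled loci. Of the 64 members 23 reached it: 6 MMPs, 3 TIMPs, 8 ADAMs and 6 ADAMTS genes. A mean of at least 100 FPKM was reached by 4 members, ADAM9, TIMP2, TIMP1 and ADAM15. A mean between 10 and 100 FPKM was reached by 6 more, ADAM19, MMP2, MMP14, ADAM10, ADAM12 and ADAM17. The other 13 tested members lay between 1 and 10 FPKM, with ADAM23 the lowest at a mean of 1.01 FPKM. Of the 41 members under 1 FPKM, 31 stayed below 0.5 FPKM in every library and 4 were listed at 0 throughout, namely ADAM30, ADAM33, MMP26 and MMP27. No collagenase, stromelysin or matrilysin reached the filter, and of the gelatinases MMP2 did while MMP9 was listed at 0.07, 0 and 0.1 FPKM in overexpressing and at 0, 0.06 and 0.02 FPKM in control cells. On chromosome 11, 9 MMP genes are direct neighbours among protein-coding genes in RefSeq, in the order MMP7, MMP20, MMP27, MMP8, MMP10, MMP1, MMP3, MMP12 and MMP13. The highest value of any of the 8 analysed was 0.44 FPKM, for MMP3 in overexpression replicate 1. A run of 4 ADAM neighbours on chromosome 8 was mixed: ADAM9 averaged 138 FPKM over all libraries, while ADAM32, ADAM18 and ADAM2 were under the filter.

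**Figure D1:**
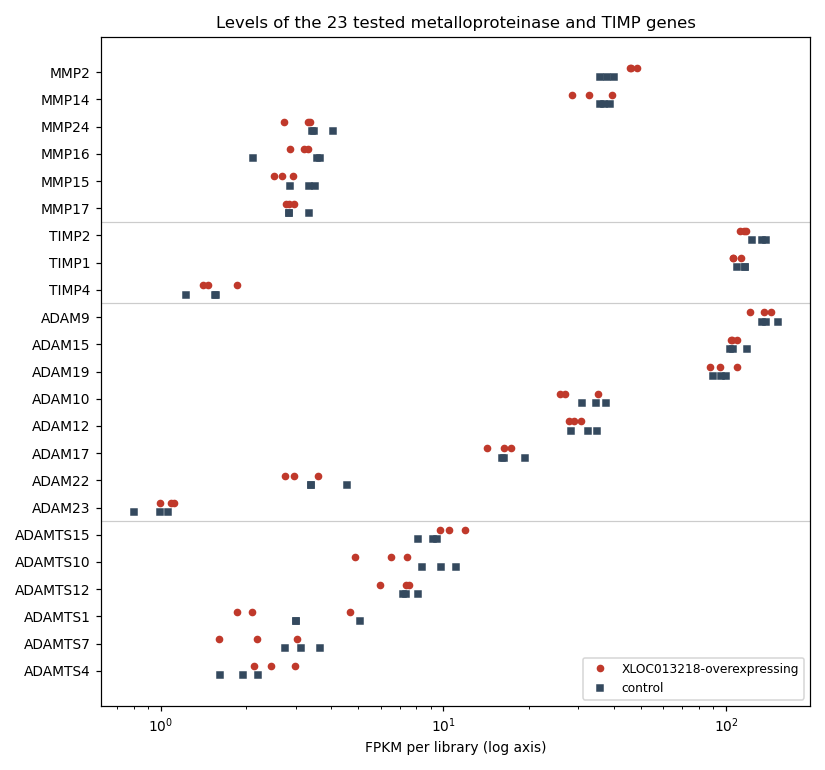
FPKM of the 23 tested members in each library on a log axis, with circles for overexpressing and squares for control libraries, ordered within each family by mean level. The circles and squares of most members lie over each other, and ADAM9, TIMP2, TIMP1 and ADAM15 sit above 100 FPKM.

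Promoter sequences of 39 members were found in RefSeq (build GRCh38.p14), covering 250 bases before to 50 bases after the start. They hold 15 of the 23 tested members, and MMP2, TIMP2 and ADAMTS15 are among those without an entry. Shown are the promoters of ADAMTS10 and MMP24, which have an entry and whose libraries did not overlap between groups, and of MMP14 and TIMP1, the most abundant MMP and TIMP with an entry. Capitals mark matches on either strand to the GC box GGGCGG, which SP-family factors bind, the AP-1 site TGANTCA, the CCAAT box and the TATA box TATAAA. Overlapping GC boxes were each counted.
ADAMTS10 (chr19:8610666-8610965, minus strand): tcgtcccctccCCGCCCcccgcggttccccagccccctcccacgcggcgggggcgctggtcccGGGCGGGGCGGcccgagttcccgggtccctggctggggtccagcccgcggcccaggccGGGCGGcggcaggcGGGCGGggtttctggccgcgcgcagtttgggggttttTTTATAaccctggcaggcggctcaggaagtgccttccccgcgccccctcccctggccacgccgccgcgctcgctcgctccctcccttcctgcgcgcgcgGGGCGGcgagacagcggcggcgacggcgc
MMP24 (chr20:35226440-35226739, plus strand): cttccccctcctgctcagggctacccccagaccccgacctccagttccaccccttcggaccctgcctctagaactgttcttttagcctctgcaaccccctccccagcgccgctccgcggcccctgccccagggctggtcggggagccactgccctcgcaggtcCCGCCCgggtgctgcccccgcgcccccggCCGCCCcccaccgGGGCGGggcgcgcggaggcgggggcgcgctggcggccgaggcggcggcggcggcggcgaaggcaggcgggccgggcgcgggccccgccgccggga
MMP14 (chr14:22836335-22836634, plus strand): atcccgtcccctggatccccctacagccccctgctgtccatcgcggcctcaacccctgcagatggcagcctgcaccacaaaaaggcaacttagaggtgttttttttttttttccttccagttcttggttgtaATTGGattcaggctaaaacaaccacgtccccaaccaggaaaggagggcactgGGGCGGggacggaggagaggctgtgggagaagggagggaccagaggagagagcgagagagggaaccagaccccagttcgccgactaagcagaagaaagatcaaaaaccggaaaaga
TIMP1 (chrX:47582186-47582485, plus strand): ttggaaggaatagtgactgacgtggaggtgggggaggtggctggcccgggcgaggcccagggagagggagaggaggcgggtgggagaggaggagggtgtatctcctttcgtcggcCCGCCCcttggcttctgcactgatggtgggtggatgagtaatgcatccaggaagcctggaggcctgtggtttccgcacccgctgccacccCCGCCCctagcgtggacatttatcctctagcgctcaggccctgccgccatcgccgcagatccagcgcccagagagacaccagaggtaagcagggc

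The ADAMTS10 window held 6 GC boxes in 79.3% G and C. It also held 1 match to the TATA box letters, which reads TTTATA and so lies on the opposite strand. MMP24 had 3 GC boxes in 80.0% G and C. MMP14, at 55.0% G and C, had 1 GC box and 1 CCAAT box, and TIMP1, at 65.0%, had 2 GC boxes. None of the 4 windows held the AP-1 letters. Among promoters of tested members 14 of 15 (93.3%) held a GC box, against 71.4% of promoters of all tested genes and 44.6% of all 27305 promoters. The AP-1 letters stood in 1 of 15 (6.67%), against 4.18% and 7.76%, the CCAAT box in 4 of 15 (26.7%), against 37.3% and 35.7%, and the TATA box in 1 of 15 (6.67%), against 5.16% of promoters of all tested genes and 3264 of all 27305 promoters, a higher share than among members. Median G and C content was 74.3% for tested members, against 65.7% for all tested genes and 58.3% for all promoters.

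The comparison asked which of these proteases and inhibitors differ when XLOC013218 is overexpressed. None of the 23 tested members passed an adjusted p of 0.05 in limma, where 0.52% of the 11731 tested genes did, 0.315% as higher and 0.205% as lower in overexpressing cells. MMP2 came closest, higher in overexpressing cells at a ratio of means of 1.24, with TIMP2 and ADAMTS10 next, both lower, at ratios of 0.875 and 0.642. An unadjusted limma p under 0.05 was reached by 4 of 23 members (17.4%), against 12.7% of all tested genes. MMP2 and ADAMTS15 were the higher ones, where 5.81% of all tested genes were such, and ADAMTS10 and TIMP2 the lower ones, against 6.9%. The 3 values of each group did not overlap in 5 of 23 members (21.7%), against 18.9% of all tested genes. They were MMP2 and ADAMTS15 as higher, against 8.81% of all tested genes, and TIMP2, ADAMTS10 and MMP24 as lower, against 10.1%. The log2 fold change, on the log2(FPKM + 1) scale, was below 0 in 16 of 23 members (69.6%), against 50.3% of all tested genes. Its median was -0.11 over tested members and 0.00 over all tested genes (-0.0007831). Without overexpression replicate 2 the median over members was -0.06. The 95% interval lay within ±0.5 for 18 of the 23 members and within ±1 for all 23, with a median width of 0.24 on either side of the estimate.

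**Figure D2:**
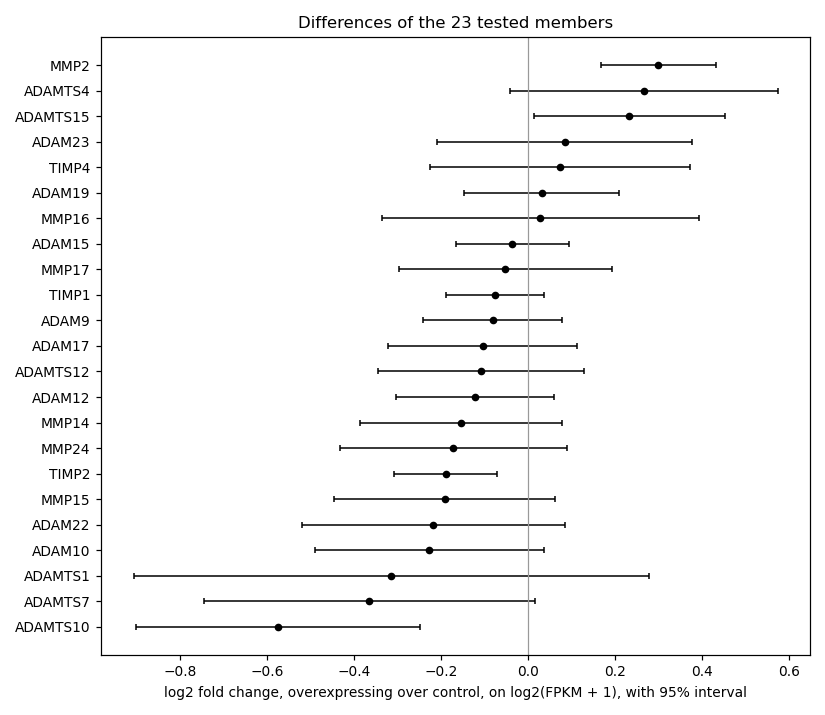
Log2 fold change of overexpressing over control cells for the 23 tested members, with 95% intervals from limma. The intervals of MMP2 and ADAMTS15 lie above 0 and those of TIMP2 and ADAMTS10 below 0, and all other intervals include 0.

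MMP2 (ENSG00000087245, chromosome 16) is the gelatinase that degrades collagen IV of basement membranes. It was at 46.2, 45.7 and 48.5 FPKM in overexpressing cells, against 37.95, 39.99 and 35.7 FPKM in control cells. All 3 overexpressing libraries were above all control libraries, and the libraries within each group were close together. The log2 fold change was 0.30 (SE 0.06, 95% interval 0.17 to 0.43, limma adjusted p = 0.0702, unadjusted p = 0.000625). Over 16 alternative settings it lay between 0.26 and 0.34 with a limma adjusted p between 0.0467 and 0.221, and it passed the threshold under array quality weights alone. Fibroblasts and macrophages also make MMP2, and the summed markers of both types given above were higher in overexpressing cells without overlap. These sums rest mostly on COL1A1 and CD68, each higher without overlap. DCN, LUM, COL3A1 and PTPRC were also higher without overlap, at under 1 FPKM. RGS5, PDGFRB, CD14, ITGAM, CSF1R and AIF1 overlapped. Both groups are labelled U251, and a part of such cells or markers in the MMP2 difference was not tested. Exons of AC007336.3 lie over MMP2 on the same strand, so reads of the pair cannot be fully told apart, which also holds for the ratio of MMP2 to TIMP2 given next.

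TIMP2 (ENSG00000035862, chromosome 17), the inhibitor that also forms the activating complex with MMP14 and proMMP2, was at 112, 116 and 118 FPKM in overexpressing cells, against 138, 134 and 124 FPKM in control cells. All overexpressing libraries were below all control libraries, the nearest being overexpression replicate 3 and control replicate 3. The log2 fold change was -0.19 (SE 0.05, limma adjusted p = 0.169). Exons of CEP295NL on the same strand and of AC022966.1 on the opposite strand lie over TIMP2, so its reads cannot be fully told apart from theirs. The ratio of MMP2 FPKM to TIMP2 FPKM was 0.411, 0.393 and 0.412 in overexpressing libraries, against 0.274, 0.299 and 0.288 in control libraries, without overlap. This ratio combines the member nearest to the threshold with one of the opposite sign and was chosen after their values were seen, so it is a description. TIMP1, a broad inhibitor of secreted MMPs, averaged 108 ± 4.40 FPKM in overexpressing and 114 ± 4.06 FPKM in control cells (SD, n = 3 each), and the groups overlapped. The TIMP1 difference of -0.08 on the log2 scale had an interval of -0.19 to 0.04 (limma adjusted p = 0.580). TIMP4 was at 1.58 ± 0.244 FPKM in overexpressing and 1.45 ± 0.191 FPKM in control cells, and its exons lie over SYN2 on the opposite strand. TIMP3, the inhibitor that is bound to the matrix and also blocks ADAM17, was at 0.05, 0.06 and 0.05 FPKM in overexpressing cells, against 0, 0.04 and 0.02 FPKM in control cells, under the filter. Summed over the 4 inhibitors, TIMP levels lay between 224 and 227 FPKM in overexpressing and between 234.5 and 256 FPKM in control cells.

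The membrane-type MMPs were 5 of 6 in the test, and none passed. MMP14 (ENSG00000157227, chromosome 14), the main pericellular collagenase and activator of proMMP2, was at 32.8, 28.4 and 39.6 FPKM in overexpressing cells, against 36.97, 35.8 and 38.9 FPKM in control cells. Overexpression replicate 3 was the highest of all 6 libraries and replicate 2 the lowest, so the groups overlapped. The log2 fold change was -0.15 (SE 0.10, 95% interval -0.39 to 0.08, limma adjusted p = 0.590). It was -0.04 without overexpression replicate 2 and -0.28 without overexpression replicate 3 (limma adjusted p = 0.908 and 0.265). MMP15, another transmembrane enzyme, averaged 2.71 ± 0.207 FPKM in overexpressing and 3.24 ± 0.333 FPKM in control cells (log2 fold change -0.19, limma adjusted p = 0.539). MMP24, a membrane-type enzyme known from the nervous system, was at 3.31, 2.73 and 3.38 FPKM in overexpressing cells, against 4.08, 3.48 and 3.43 FPKM in control cells. The groups were apart by the small step between 3.38 and 3.43 FPKM (limma adjusted p = 0.590). Exons of MMP24 lie over those of MMP24OS on the opposite strand, and since it is not given whether counting used the strand, reads of the pair cannot be told apart. MMP16 averaged 3.13 FPKM in overexpressing and 3.12 FPKM in control cells, and exons of AC090578.1 lie over it on the opposite strand. The GPI-anchored MMP17 averaged 2.86 FPKM in overexpressing and 3.01 FPKM in control cells.

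**Figure D3:**
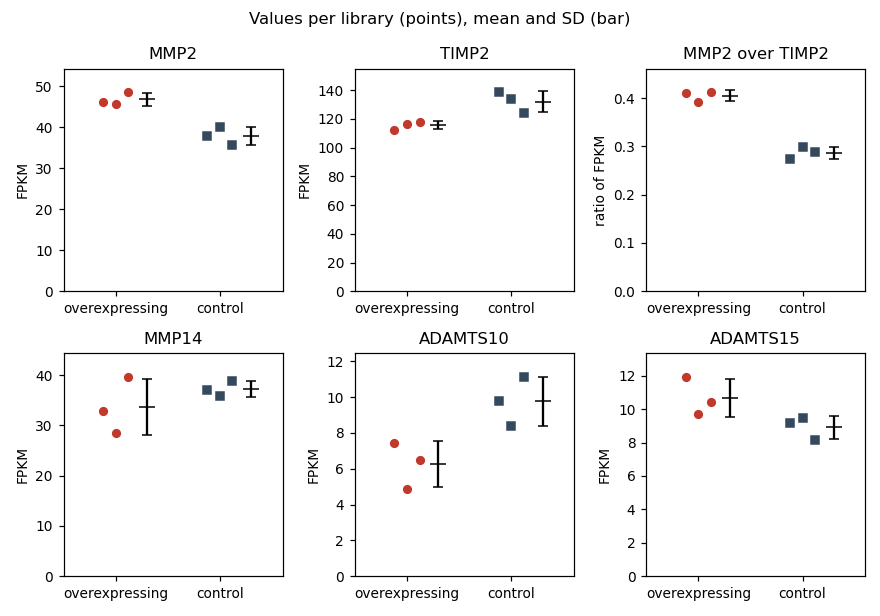
Values of MMP2, TIMP2, the ratio of MMP2 to TIMP2, MMP14, ADAMTS10 and ADAMTS15 in the 3 overexpressing and 3 control libraries, in FPKM or as a ratio of FPKM, with the mean and SD beside the points. Points of MMP14 overlap between groups, while those of the other panels do not.

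ADAMs had the highest summed level of the 4 families, and none of the 8 tested passed. All ADAMs summed to 418, 413 and 425 FPKM in overexpressing cells, against 432, 422 and 455 FPKM in control cells. ADAM10 (ENSG00000137845, chromosome 15), the sheddase that makes the first membrane cut in ligand-bound Notch receptors, was at 25.9, 26.8 and 35.4 FPKM in overexpressing cells, against 34.6, 30.8 and 37.5 FPKM in control cells. Overexpression replicate 3 reached into the control range, and the other overexpressing libraries lay below it. The log2 fold change was -0.23 (SE 0.12, 95% interval -0.49 to 0.04, limma adjusted p = 0.467). For ADAM10 it was -0.15 without overexpression replicate 1 and -0.36 without overexpression replicate 3 (limma adjusted p = 0.654 and 0.193). ADAM17 (ENSG00000151694, chromosome 2), which releases TNF and EGF receptor ligands, was at 14.3, 16.4 and 17.3 FPKM in overexpressing cells, against 16.4, 16.1 and 19.4 FPKM in control cells. These groups overlapped (log2 fold change -0.11 with an SE of 0.10, limma adjusted p = 0.708). For ADAM17 it was -0.02 without control replicate 3, -0.03 without overexpression replicate 1 and -0.16 without overexpression replicate 3. ADAM10 was the more abundant of these sheddases in every library, at 1.63 to 2.04 times the ADAM17 level in overexpressing and 1.91 to 2.11 times in control cells.

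ADAM9, a widely expressed membrane protease, was the most abundant member, at 122, 144 and 136 FPKM in overexpressing cells, against 138, 134 and 153 FPKM in control cells (log2 fold change -0.08, interval -0.24 to 0.08). ADAM15, which carries an integrin-binding RGD motif in humans, averaged 106 ± 2.66 FPKM in overexpressing and 109 ± 7.84 FPKM in control cells, and its log2 fold change of -0.04 turned to 0.02 without control replicate 1. ADAM19, which can process neuregulin, averaged 97.4 ± 10.99 FPKM in overexpressing and 95.1 ± 5.20 FPKM in control cells. Its log2 fold change of 0.03 was -0.01 without control replicate 1 and -0.06 without overexpression replicate 1, the library in which it was highest at 109 FPKM. ADAM12, known from muscle and from stroma of tumours, averaged 29.2 ± 1.37 FPKM in overexpressing and 31.95 ± 3.35 FPKM in control cells. Limma adjusted p was 0.685, 0.845, 0.911 and 0.581 for ADAM9, ADAM15, ADAM19 and ADAM12. The ADAM9 value was -0.03 without control replicate 3, -0.02 without overexpression replicate 1 and -0.13 without overexpression replicate 2, and the ADAM12 value of -0.12 was -0.20 without control replicate 1 and -0.06 without control replicate 3. Exons of CYFIP2 lie over ADAM19, exons of IAH1 over ADAM17 and exons of AC018904.1 over ADAM10, all on the opposite strand. Exons of DCST1 lie over ADAM15 on the same strand.

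Of the 8 ADAMs without an active site, ADAM22 and ADAM23 were tested; both are known as neuronal receptors of the secreted protein LGI1. ADAM22 was at 2.97, 2.76 and 3.6 FPKM in overexpressing cells, against 3.41, 4.57 and 3.4 FPKM in control cells (log2 fold change -0.22 with an SE of 0.13, limma adjusted p = 0.549), and ADAM23 averaged 1.06 FPKM in overexpressing and 0.95 FPKM in control cells. The groups of both overlapped, and the ADAM22 value was -0.11 without control replicate 2. ADAM32 ranged from 0.52 to 0.65 FPKM in overexpressing and from 0.36 to 1.64 FPKM in control cells, so the control libraries spanned the whole range.

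No tested ADAMTS gene passed, though the 3 log2 fold changes of greatest size among all tested members were those of ADAMTS10, ADAMTS7 and ADAMTS1. ADAMTS10 (ENSG00000142303, chromosome 19), which binds fibrillin and is mutated in Weill-Marchesani syndrome, was at 7.42, 4.88 and 6.5 FPKM in overexpressing cells, against 9.8, 8.38 and 11.1 FPKM in control cells. Every overexpressing library was below every control library. The log2 fold change was -0.57 (SE 0.14, 95% interval -0.90 to -0.25, limma adjusted p = 0.140), and it lay between -0.69 and -0.43 over the 16 alternatives. ADAMTS15 (ENSG00000166106, chromosome 11), a protease of versican and aggrecan, was at 11.9, 9.7 and 10.4 FPKM in overexpressing cells, against 9.16, 9.47 and 8.14 FPKM in control cells. The groups were apart by the step between 9.7 and 9.47 FPKM (log2 fold change 0.23 with an SE of 0.10, limma adjusted p = 0.367). Its neighbour on chromosome 11, ADAMTS8, was at 0.06 FPKM or less in every library.

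ADAMTS4, an aggrecanase that also cuts brevican, was at 2.98, 2.14 and 2.46 FPKM in overexpressing cells, against 1.62, 1.96 and 2.21 FPKM in control cells. The groups overlapped (log2 fold change 0.27 with an SE of 0.14, limma adjusted p = 0.470). ADAMTS7, which cuts cartilage oligomeric matrix protein, was at 3.04, 1.61 and 2.19 FPKM in overexpressing cells, against 2.74, 3.66 and 3.13 FPKM in control cells (log2 fold change -0.37 with an SE of 0.17, limma adjusted p = 0.406). The ADAMTS7 value was -0.21 without overexpression replicate 2, and that of ADAMTS4 was 0.17 without overexpression replicate 1. Pseudogene copies of ADAMTS7 exist, so its share of the reads is uncertain. ADAMTS12, of the same clade, averaged 6.96 FPKM in overexpressing and 7.56 FPKM in control cells. ADAMTS1, a hyalectanase, was at 4.67, 1.86 and 2.1 FPKM in overexpressing cells, against 3.0, 3.0 and 5.05 FPKM in control cells. Both of its groups held 1 high library, and its interval of -0.91 to 0.28 was the widest of the 23. Of the procollagen N-propeptidases, ADAMTS3 was between 0.93 and 1.06 FPKM in overexpressing and between 0.68 and 0.89 FPKM in control cells, and ADAMTS2 and ADAMTS14 were at 0.09 FPKM or less in every library.

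Members under the filter were not tested, but their groups can be set side by side. Among the 37 members under the filter with a value above 0 in at least 1 library, 8 (21.6%) had all overexpressing values above all control values. None had them all below. Of all 5855 such genes, 6.88% were higher in this way and 2.78% lower. The 8 members are MMP3, MMP20, MMP25, TIMP3, ADAM2, ADAM8, ADAM29 and ADAMTS3. They were picked for that, and their number supports nothing. ADAM2 and MMP20 were listed at 0 in all control libraries, and the groups of TIMP3 were apart by the step between 0.05 and 0.04 FPKM, the smallest the rounded tables can show. More genes were listed at 0 in the control libraries, as given above, and the part of this in these values was not tested. Exons of other genes lie over MMP3, MMP20, MMP25, ADAM29 and ADAMTS3 on the opposite strand, so their reads cannot be fully told apart. ADAM8, a leukocyte and tumour protease, was at 0.78, 0.54 and 0.64 FPKM in overexpressing cells, against 0.38, 0.34 and 0.25 FPKM in control cells. MMP25, a leukocyte membrane-type MMP, was at 0.61, 0.65 and 0.53 FPKM in overexpressing cells, against 0.47, 0.16 and 0.28 FPKM in control cells. MMP3, stromelysin-1, was at 0.44, 0.4 and 0.07 FPKM in overexpressing cells, against 0.02, 0 and 0.03 FPKM in control cells, so overexpression replicate 3 was nearer to the control libraries than to its own group. Of the macrophage list, the leukocyte marker PTPRC was at 0.65, 0.39 and 0.52 FPKM in overexpressing and at 0.13, 0.17 and 0.15 FPKM in control cells. CD68, also higher without overlap, averaged 10.1 FPKM in overexpressing and 7.19 FPKM in control cells, while CD14, ITGAM, CSF1R and AIF1 overlapped. The relation of these markers to ADAM8 and MMP25 was not tested. With the filter dropped to any value above 0, 0 of 60 members passed in limma, where 1 of 17627 genes did, and 8 of 60 had an unadjusted p under 0.05, against 1927 of 17627 genes.

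**Figure D4:**
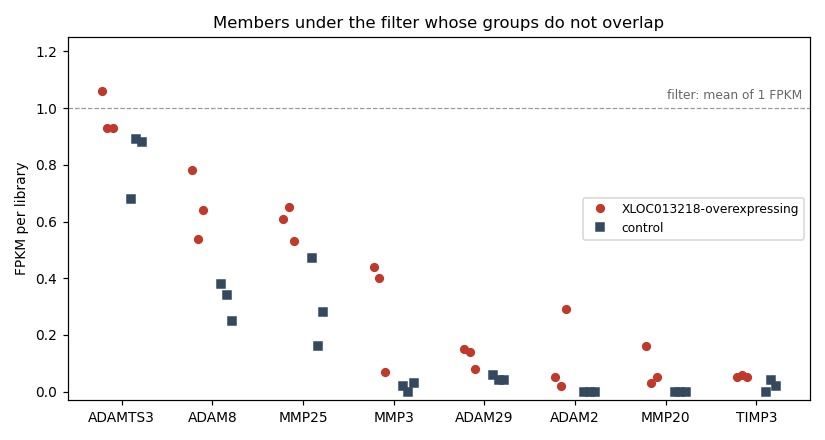
FPKM per library of the 8 members under the filter whose groups do not overlap, with circles for overexpressing and squares for control libraries. All values lie below 1 FPKM except the 1.06 FPKM of ADAMTS3 in overexpression replicate 1, and the overexpressing points lie above the control points in each gene.

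Genes that work with these proteases did not pass either, where 0.52% of all tested genes did. Of 9 tested partners of the sheddases, 0 passed, 4 had an unadjusted limma p under 0.05, which 12.7% of all tested genes had, and the median log2 fold change was -0.12. TSPAN14, a tetraspanin that carries ADAM10 to the surface, was at 66.8, 70.8 and 67.8 FPKM in overexpressing cells, against 75.1, 75.7 and 74.8 FPKM in control cells, without overlap (limma adjusted p = 0.271). FRMD8 and RHBDF2, which stabilise and transport ADAM17, averaged 23.5 and 8.24 FPKM in overexpressing cells, against 27.5 and 9.78 FPKM in control cells (limma adjusted p = 0.2997 and 0.375). The 9 partners summed to between 217 and 224 FPKM in overexpressing and between 239 and 244 FPKM in control cells. FURIN, the convertase that removes the prodomain of MMP14 and of ADAMs, averaged 42.65 FPKM in overexpressing and 41.8 FPKM in control cells, with overlap. PCSK7 and PCSK5 averaged 20.85 and 1.56 FPKM in overexpressing cells, against 23.4 and 1.84 FPKM in control cells. These 2 of 3 tested convertases were lower without overlap, where 10.1% of all tested genes were such, and none of the 3 passed.

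Among 7 tested regulators of metalloproteinases, 0 passed, and the median log2 fold change was -0.22. A2M, the plasma protease trap alpha-2-macroglobulin, was at 3.9, 3.01 and 3.23 FPKM in overexpressing cells, against 4.72, 6.25 and 6.51 FPKM in control cells. Its groups did not overlap (log2 fold change -0.64 with an SE of 0.13, limma adjusted p = 0.0879). LRP1, the receptor that clears A2M and MMPs, averaged 2.65 FPKM in overexpressing and 3.55 FPKM in control cells, PCOLCE, an enhancer of procollagen C-proteinase, 7.85 FPKM in overexpressing and 9.32 FPKM in control cells, and RECK, a membrane inhibitor of MMPs, 10.4 FPKM in overexpressing and 11.35 FPKM in control cells. BSG, a surface glycoprotein known to induce MMPs, averaged 781 FPKM in overexpressing and 778 FPKM in control cells. With CST3, at a mean of 139 FPKM against 148 FPKM in control cells, 4 of the 7 were lower without overlap. The others were A2M, LRP1 and RECK, where 10.1% of all tested genes were such. None was higher without overlap, against 8.81% of all tested genes. Of 3 tested ADAMTS-like proteins, which lack the protease domain, 0 passed. ADAMTSL5 came nearest, at 8.44, 7.35 and 5.92 FPKM in overexpressing cells, against 5.03, 6.02 and 4.65 FPKM in control cells (limma adjusted p = 0.267).

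Of 21 tested proteins that ADAM10 or ADAM17 shed, 0 passed, 6 had an unadjusted limma p under 0.05, against 12.7% of all tested genes, and the median log2 fold change was 0.00 (-0.002463). PVR, an adhesion molecule and immune ligand, was at 74.2, 67.8 and 70.8 FPKM in overexpressing cells, against 61.8, 62.1 and 59.2 FPKM in control cells (limma adjusted p = 0.128). NRG1, an EGF-family growth factor, averaged 21.0 FPKM in overexpressing and 17.4 FPKM in control cells, and AXL, a receptor tyrosine kinase, 91.7 FPKM in overexpressing and 81.6 FPKM in control cells, both without overlap (limma adjusted p = 0.164 and 0.298). Over the list 5 of 21 were higher without overlap, against 8.81% of all tested genes, with PRNP and BTC as the others. Another 5 of 21 were lower without overlap, against 10.1% of all tested genes, namely ALCAM, NOTCH1, NOTCH2, APP and APLP2. NOTCH1 averaged 13.7 FPKM in overexpressing and 15.1 FPKM in control cells, and ALCAM, an adhesion molecule, 74.1 FPKM in overexpressing and 83.8 FPKM in control cells (limma adjusted p = 0.432 and 0.355). Of 2 tested hyalectans, VCAN, a substrate of ADAMTS15, was at 11.3, 9.64 and 11.95 FPKM in overexpressing cells, against 6.82, 7.3 and 9.95 FPKM in control cells. Its groups overlapped (limma adjusted p = 0.249). BCAN, the gene of brevican, averaged 2.45 FPKM in overexpressing and 2.40 FPKM in control cells (limma adjusted p = 0.979). ACAN was listed at 0 throughout. Of 4 tested metalloendopeptidases of other families, 0 passed: BMP1, the procollagen C-proteinase, averaged 51.9 FPKM in overexpressing and 59.4 FPKM in control cells, and MME, neprilysin, 1.59 FPKM in overexpressing and 0.893 FPKM in control cells.

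Libraries of a group did not order the members evenly. Among the overexpressing libraries, replicate 2 was the lowest in 16 of the 23 tested members, replicate 1 the highest in 11 and replicate 3 the highest in 10. Among the control libraries the counts were more even, with the lowest value in 6, 7 and 10 members for replicates 1 to 3. The same counts were not made over all tested genes, so they cannot tell a library-wide shift from one of these members. All ADAMTS genes together summed to 41.5, 29.7 and 34.7 FPKM in the overexpressing libraries, against 37.4, 37.2 and 40.5 FPKM in the control libraries. The control range lay within that of the overexpressing libraries. All MMPs together summed to 96.1, 89.1 and 104 FPKM in the overexpressing libraries, against 91.9, 91.8 and 90.98 FPKM in the control libraries.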

How the data were processed

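RNA-seq values of 3 libraries of U251 cells overexpressing XLOC013218 and 3 control libraries were read from 1 table per library. The authors deposited gene-level FPKM values rounded to 2 decimals. Tools listed in the submitters' processing notes are RSEM 1.3.1, Cufflinks 2.2.1, edgeR, Bowtie and TopHat, with hg18 as build, but not which of them gave the values or whether counting used the strand. Stranded, poly(A)-selected libraries are recorded per the labels' protocols, whereas the design text has cytoplasmic RNA without that selection. In 5 tables the last line was incomplete and was not read; it lies among assembled loci after the 20330 Ensembl genes. Of the Ensembl identifiers, 19447 had a symbol, and gene types, chromosomes and exon overlaps came from GENCODE 29.

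Loci present in every table and averaging 1 FPKM or more, 11731 with the assembled loci among them, were compared on log2(FPKM + 1) with limma 3.58.1 in R 4.3.3 (limma-trend, group as the only term, two-sided, Benjamini-Hochberg adjustment over all tested loci, threshold 0.05). Such fold changes understate those of low genes. An exact permutation test of 3 against 3 libraries cannot give a p under 0.1, so single genes rest on limma. The fit was tested on simulated data. Named members are those past the threshold, those with a mean of at least 10 FPKM and the 12 with the lowest p, and for other lists the 3 with the lowest p; any other gene was named after its values were seen. ADAMs with an active site were assigned from general knowledge. The members and lists were chosen with earlier results of these data known. Alternatives were other pseudocounts, filters, scalings and limma settings, the replicate number as a block and each library left out. Table work used pandas 2.3.3 on Python 3.11.15, numpy 2.4.6 and, for figures, matplotlib 3.10.9.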

Additional observations from a re-analysis of the deposited data

How the results depend on the processing

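Of the 252 values of the 16 named members under 16 alternatives, 248 kept their direction and stayed short of the threshold, 1 passed it and 3 changed sign, the sign changes being those of ADAM15 (0.0206 without control replicate 1, and between -0.07428 and 0.0206 with 1 library left out) and ADAM19 (-0.01077 without control replicate 1 and -0.05547 without overexpression replicate 1, and between -0.05547 and 0.1011 with 1 library left out). The number of members called was 0 in every alternative except array quality weights, where it was 1, MMP2. Those weights also gave smaller log2 fold changes for MMP14 (-0.09), ADAM10 (-0.11), ADAM17 (-0.03) and ADAM9 (-0.03), and TPM gave 0.02 for ADAM19. The number of all tested genes called, 61 as reported, was 22 with no filter on low values, 1 with genes above 0 FPKM in at least 1 library, 1 with no trend in limma, 197 with array quality weights and 19 with the replicate block, and between 1 and 60 with 1 library left out. After rescaling to TPM it was again 61, as 30 higher and 31 lower in place of 37 and 24. The median log2 fold change of tested members was 4.668e-05 with no filter on low values and 0.004669 with genes above 0 FPKM in at least 1 library, both of which add members near 0 FPKM, and lay between -0.1215 and -0.06089 with 1 library left out, the last without overexpression replicate 2. Filtering on values above 0 in at least 1 library was chosen after seeing the data. Same-numbered libraries did not deviate together, with correlations of -0.0398, -0.0576 and 0.0446 for numbers 1 to 3, so the numbers were not taken as pairs; no overexpressing library but replicate 3 correlated best with the control library of its own number, and with the replicate block 0 members were called. The 95% intervals of tested members reached between 0.113 and 0.592 to either side on the log2 scale, and differences of the 41 members under 1 FPKM were not tested at that filter.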
